A study of Mus musculus with 8 samples.

Results

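The genes described here are 10 members of the insulin-like growth factor (IGF) system of the mouse, taken by name from the 42416 genes counted: the ligand gene Igf1, the receptor genes Igf1r and Igf2r, and the binding protein genes Igfbp1 to Igfbp7. They were measured by RNA sequencing of sorted fragments of the distal convoluted tubule, a part of the distal nephron where NaCl is taken up through the thiazide-sensitive cotransporter. The 4 KO libraries came from mice labelled Cnb1fl Tg/Tg, NCCcre Tg/+, TOMATO Tg/+, and the 4 Control libraries from mice labelled Cnb1fl wt with the same NCCcre Tg/+ and TOMATO Tg/+ alleles. Cnb1 is the regulatory subunit of calcineurin, the calcium-activated phosphatase blocked by drugs such as tacrolimus, and NCC, in the name of the Cre transgene, is that cotransporter. Mice of both genotypes were gavaged with tamoxifen on 5 days (2 mg daily each), and 1000 sorted fragments per library were collected after a further 3 weeks. Age and sex were not stated. The comparison asks how the RNA of this segment differs when calcineurin is deleted there.

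IGF1 acts through the receptor tyrosine kinase IGF1R, which signals through insulin receptor substrates, PI3 kinase and AKT. IGF2R, also the cation-independent mannose 6-phosphate receptor, takes up IGF2 for degradation and sorts lysosomal enzymes. Binding proteins hold IGFs in the extracellular space and are cut by proteases such as PAPP-A. In the kidney, IGF1 is known to raise glomerular filtration and tubular phosphate reabsorption, and IGFBP7 is used as a urinary marker of tubular stress.

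The 8 libraries held 18161442 to 45150953 counts each. The targeted gene Ppp3r1, which encodes Cnb1, stood at 86.2 ± 10.8 CPM (read counts scaled to a common library size, TMM-adjusted) in KO and 97.4 ± 9.87 CPM in Control (SD, n = 4 each), with overlapping libraries, so whole-gene counts do not check the labels, and KO is used by label alone. The sum of 8 distal convoluted tubule markers was 7131 to 11008 CPM in KO and 12423 to 17186 CPM in Control, and 4 of the 8 were lower in KO by edgeR's quasi-likelihood test. Those 4, named after their values were seen, were Pvalb, Trpm6, Klhl3 and Calb1. The other 4 did not pass, with log2 fold changes of -0.41 for Slc12a3, -0.56 for Wnk1, -0.11 for Emx1 and 0.17 for Sall3. Slc12a3, the cotransporter gene, overlapped between the groups, at 3911 to 8074 CPM in KO and 5651 to 8049 CPM in Control. Markers of the neighbouring thick ascending limb, 4 genes, summed to 2731 to 5440 CPM in KO and 7434 to 12186 CPM in Control, most of it Umod. Across all 14268 genes tested by edgeR, 191 were higher and 125 lower in KO. Scaling by library totals instead gave 242 higher and 90 lower, with a median log2 fold change over all genes of 0.13 in place of -0.02.

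In the Control libraries, Igfbp7 was by far the most abundant member, and the order of levels per length was Igfbp7, Igfbp4, Igfbp5, Igf2r, Igf1r, Igf1, Igfbp1 and Igfbp3. These levels are CPM per kb of merged exons in Control. Igfbp7, which binds IGFs weakly and also binds insulin, stood at 1070 ± 293.7 CPM per kb (SD, n = 4), above 99.7% of the tested genes. Next came Igfbp4, an inhibitory binding protein, at 35.4 ± 16.0 CPM per kb, a level 30.2 times lower. Its libraries overlapped those of Igfbp5, a binding protein that attaches to extracellular matrix, which had 23.9 ± 7.78 CPM per kb. Both stood above 86.0% or more of the tested genes.

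The receptors followed. Igf2r had 9.79 ± 2.28 CPM per kb in Control, below every Control library of Igfbp5 and above every one of Igf1r. Igf1r, at 4.78 ± 1.02 CPM per kb, and the ligand gene Igf1, at 4.51 ± 0.62 CPM per kb, overlapped, and both lay near the middle of all tested genes (51.1% and 49.6% were lower). Igfbp1 had 1.53 ± 1.13 CPM per kb and Igfbp3, the main IGF carrier of the blood, 0.51 ± 0.22 CPM per kb, and these also overlapped each other. In KO the order was the same except that Igfbp5 (25.5 to 48.7 CPM per kb) stood above Igfbp4 (10.1 to 36.2 CPM per kb), with overlapping libraries, and Igfbp3 (0.625 ± 0.148 CPM per kb) above Igfbp1 (0.0933 ± 0.053 CPM per kb).

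**Figure D1:**
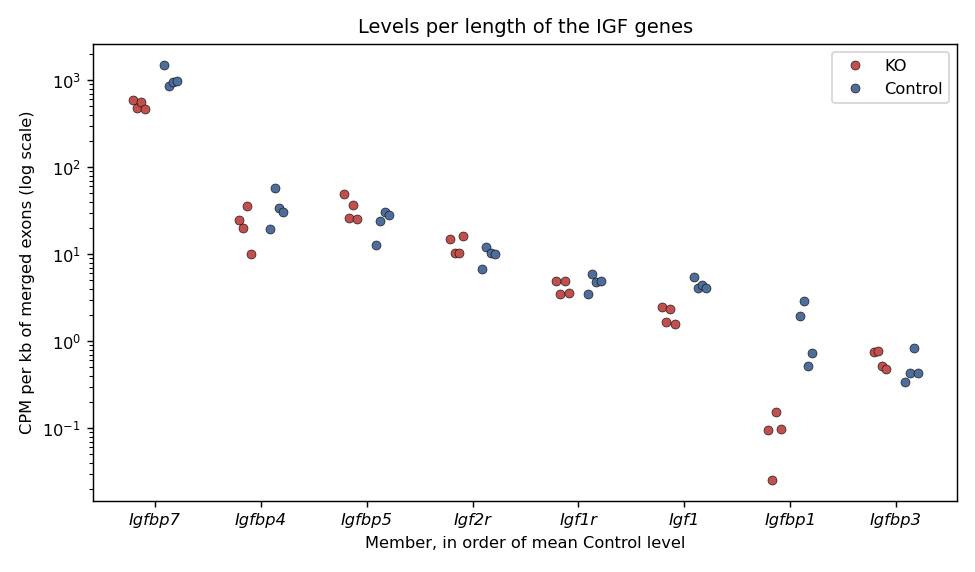
Level of each tested member in CPM per kb of merged exons on a log axis, with 1 point per library, KO in red left of Control in blue. Igfbp7 stands far above the others in both groups, and Igfbp1 has the widest gap between the groups.

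Igfbp2 and Igfbp6 were at the limit of detection. Igfbp2 had 2 counts over the KO libraries, all in replicate 4, and 3 over the Control libraries, all in replicate 1. Igfbp6, a binding protein that prefers IGF2, had 0 counts in KO and 3 in Control, again all in replicate 1. A count of 0 over the KO libraries allows up to 0.0264 CPM, counting error only, so no difference was detectable for either gene and no fold is given. The 8 other members passed the filter on low counts. Igfbp1 passed it through the Control libraries alone, with 0 of 4 KO libraries over the cut-off of about 0.413 CPM, so it could enter the test only by being higher in Control.

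The family was selected on the KO against Control levels of its genes. The fold changes of the members are therefore a description, and no p is given for them. Of the 8 tested members, 3 were lower in KO past the adjusted threshold of 0.05 in the edgeR fit over all genes and 0 were higher, where 2.21% of all tested genes passed, 0.876% as lower and 1.34% as higher. The same 3, Igf1, Igfbp1 and Igfbp7, were the members whose KO and Control libraries did not overlap, which held for 9.44% of all genes, 3.83% with KO lower and 5.61% with KO higher. Nothing is read from these counts, because the members were selected on this contrast and Igfbp1 could be tested only through its Control libraries.

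Igf1, which encodes the ligand (ENSMUSG00000020053, chromosome 10, 87858265 to 87937042, plus strand, GRCm38), had 24.7, 16.4, 22.9 and 15.5 CPM in KO replicates 1 to 4, and 53.5, 40.4, 44.1 and 40.7 CPM in Control replicates 1 to 4. All 4 KO libraries lay below all 4 Control libraries, and the counts behind them were 310 to 1681 per library. The means were 19.9 ± 4.56 CPM in KO and 44.7 ± 6.14 CPM in Control (SD, n = 4 each). On the log2 scale the fold change was -1.17 ± 0.17 (SE). Leaving out KO replicate 2 made it -1.08 and no longer past the threshold. In bulk samples, fewer cells of a type and less RNA per cell cannot be told apart.

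Igfbp7 (ENSMUSG00000036256, chromosome 5, 77349240 to 77408041, minus strand) had 718.0, 579.9, 673.0 and 568.5 CPM in KO, and 1818, 1034, 1150.2 and 1170.3 CPM in Control. The groups did not overlap, and Control replicate 1 stood above the other Control libraries. The means were 634.9 ± 72.5 CPM in KO and 1293 ± 355.1 CPM in Control, a log2 fold change of -1.03 ± 0.19 (SE). It was -0.82 without Control replicate 1. The call was lost without KO replicate 1, 2 or 4 (-1.09, -0.99 and -0.97) and without Control replicate 3 or 4 (-1.08 and -1.07). Of its 1209 merged exon bases, 85 overlap Polr2b on the opposite strand, which held 8.34% as many counts over the whole gene. The strand setting is not stated, so how reads in the shared bases were assigned is not known.

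Igfbp1 (ENSMUSG00000020429, chromosome 11, 7197782 to 7202546, plus strand) encodes a short-lived secreted binding protein whose transcription in liver is lowered by insulin and raised by FOXO factors. It had 0.144, 0.0386, 0.236 and 0.15 CPM in KO, and 2.97, 4.48, 0.784 and 1.1 CPM in Control. The KO values rest on 7, 1, 6 and 3 reads and the Control values on 61, 186, 15 and 22 reads. All KO libraries were below all Control libraries, and within Control, replicates 1 and 2 stood above replicates 3 and 4. The means were 0.142 ± 0.0809 CPM in KO and 2.33 ± 1.72 CPM in Control, 16.4 times lower in KO, with a fitted log2 fold change of -4.02 ± 0.68 (SE). The call was lost without KO replicate 1, 2 or 4, at -4.03, -3.73 and -4.04.

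**Figure D2:**
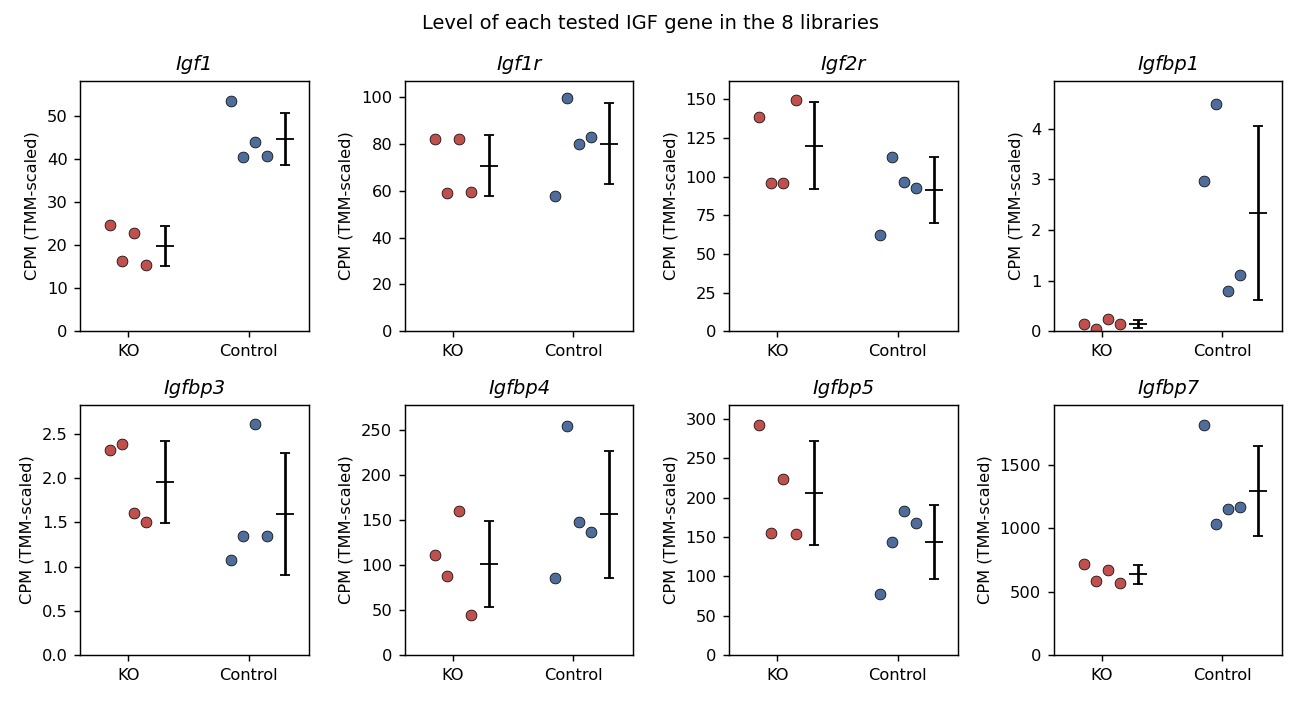
CPM of the 8 tested members in each library, KO in red and Control in blue, replicates 1 to 4 from left to right in each group, with the mean and SD as a bar beside them. Igf1, Igfbp1 and Igfbp7 have no overlap between the groups, and the other 5 members overlap.

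The bases upstream of Igfbp1 and Igfbp7 are shown because the levels of these binding proteins, which stand near the low end and at the high end of the family, were both lower in KO. They are the 250 bases before the RefSeq start, from GRCm38.p6 and read 5′ to 3′ on the gene's own strand. They span chr11:7197537-7197786 on the plus strand for Igfbp1 and chr5:77408046-77408295 on the minus strand for Igfbp7. Capitals mark CAAAACA, the core of the insulin response sequence known from the human IGFBP1 promoter.
Igfbp1: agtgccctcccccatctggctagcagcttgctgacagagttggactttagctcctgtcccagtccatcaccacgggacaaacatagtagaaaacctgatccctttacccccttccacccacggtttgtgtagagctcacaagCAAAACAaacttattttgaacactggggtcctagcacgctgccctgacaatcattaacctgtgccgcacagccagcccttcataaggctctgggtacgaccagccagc
Igfbp7: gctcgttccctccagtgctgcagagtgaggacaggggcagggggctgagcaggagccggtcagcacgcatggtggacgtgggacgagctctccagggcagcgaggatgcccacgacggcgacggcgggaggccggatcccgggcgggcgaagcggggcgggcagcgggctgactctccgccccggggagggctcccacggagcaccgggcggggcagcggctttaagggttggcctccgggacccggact
The capitals stand 108 to 102 bases before the start of Igfbp1. Both strands were searched for CAAAACA, for the FOXO core GTAAACA and for the NFAT core GGAAAA, where NFAT is the transcription factor family that calcineurin activates. CAAAACA was in 5.56%, GTAAACA in 3.17% and GGAAAA in 20.4% of 32851 windows of the same length. The other motifs were not in the Igfbp1 window, and none of the 3 was in that of Igfbp7, whose bases were 74.0% G or C, against 53.2% for Igfbp1. Among the windows of all 10 members, the single other match was GGAAAA upstream of Igf1, on the opposite strand, 242 to 237 bases before the start. These matches describe letters and not bound sites.

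Igf1 and Igfbp7 kept a similar proportion to each other in every library. The ratio of Igfbp7 to Igf1 in CPM was 29.1, 35.3, 29.4 and 36.6 in KO and 34.0, 25.6, 26.1 and 28.8 in Control, and the groups overlapped. Likeness was taken as the root-mean-square distance between log2(CPM + 0.5) profiles over the 8 libraries, each centred on its mean, among 13016 genes with a mean of at least 1 CPM. The genes nearest to Igf1 were Asb9, an adaptor of ubiquitin ligases (distance 0.138), the small heat-shock protein gene Cryab (0.138), Igfbp7 itself (0.175) and the lipid transporter gene Abca4 (0.192). Nearest to Igfbp7 were the long noncoding Gm3924 (0.12), Fam131a (0.122), the actin-binding calponin gene Cnn3 (0.124) and the long noncoding Gm48287 (0.147), and Igf1 ranked ninth. The distances include the gap between the groups, so they describe these 8 libraries only.

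The receptor genes overlapped between the groups. Igf1r (ENSMUSG00000005533, chromosome 7, 67952827 to 68233668, plus strand) had 82.1, 59.1, 82.0 and 59.7 CPM in KO, and 58.0, 99.8, 80.0 and 83.2 CPM in Control, a log2 fold change of -0.18 ± 0.18 (SE). Igf2r (ENSMUSG00000023830, chromosome 17, 12682406 to 12769664, minus strand) had 138.6, 96.0, 95.7 and 149.7 CPM in KO, and 62.0, 112.8, 96.8 and 92.9 CPM in Control, a log2 fold change of 0.40 ± 0.21 (SE). KO replicates 1 and 4 were its highest libraries and Control replicate 1 its lowest. Airn, the antisense transcript that runs through Igf2r, held 2.19% as many counts and shared no exon bases with it.

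The remaining binding proteins overlapped as well. Igfbp4 (ENSMUSG00000017493, chromosome 11, 99041244 to 99054392, plus strand) had 110.6, 87.8, 159.7 and 44.6 CPM in KO, and 85.9, 254.2, 148.1 and 136.6 CPM in Control, a log2 fold change of -0.63 ± 0.39 (SE). It was the most variable of the well-counted members, with an SD of 47.6% of the mean in KO and 45.3% in Control. Igfbp5 (ENSMUSG00000026185, chromosome 1, 72857932 to 72874884, minus strand) had 292.4, 155.6, 223.2 and 153.2 CPM in KO, and 77.7, 143.9, 183.5 and 168.4 CPM in Control, a log2 fold change of 0.52 ± 0.29 (SE). Igfbp3 (ENSMUSG00000020427, chromosome 11, 7206086 to 7213923, minus strand) had 2.32, 2.39, 1.61 and 1.5 CPM in KO, and 1.07, 1.35, 2.61 and 1.35 CPM in Control, a log2 fold change of 0.31 ± 0.34 (SE), from 22 to 113 reads per library.

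Control replicate 1 stood at an end of the Control range in all 8 tested members but Igfbp1. It was the highest for Igf1 and Igfbp7 and the lowest for Igf1r, Igf2r, Igfbp3, Igfbp4 and Igfbp5. With each of the 8 libraries left out in turn, the log2 fold change of Igfbp4 ran from -0.96 without KO replicate 3 to -0.29 without Control replicate 2. In the same way Igf1r ran from -0.32 to -0.06, Igf2r from 0.24 to 0.52, Igfbp3 from 0.16 to 0.64 and Igfbp5 from 0.30 to 0.67.

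The animal numbers in the labels fall into 3 series, of which 1 holds a single Control library. In the series with 3 KO and 2 Control libraries, the log2 ratio of mean CPM was -1.21 for Igf1, -0.85 for Igfbp7 and -4.21 for Igfbp1. In the series with 1 KO and 1 Control library it was -1.12, -1.34 and -4.37 for the same genes. These libraries were KO replicate 1 and Control replicate 1, the latter at an end of the Control range in most members. A difference between this series and the other can therefore rest on that single Control library. The sign differed between these series for Igf1r (-0.43 and 0.50), Igfbp3 (-0.11 and 1.12) and Igfbp4 (-1.05 and 0.36), and was positive in both for Igf2r (0.12 and 1.16) and Igfbp5 (0.12 and 1.91). With a term for the series, the call of Igf1 held at -1.18, while those of Igfbp7 (-0.99) and Igfbp1 (-4.25) were lost. Whether a series was handled together is not stated in the labels. File names carry an index for KO replicate 1 and Control replicate 2, the deepest libraries, with 45150953 and 42389558 counts. Between them the log2 ratio was -0.71 for Igf1, -0.53 for Igfbp7 and -4.96 for Igfbp1. In the 3 KO and 3 Control libraries without an index it was -1.33, -1.18 and -3.52. The part of depth or file name in these ratios was not tested.

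The members lie in part as neighbours in the genome. Igfbp1 and Igfbp3 face each other tail to tail across 3.54 kb of chromosome 11, and Igfbp2 (ENSMUSG00000039323, chromosome 1, 72824503 to 72852474, plus strand) and Igfbp5 do the same across 5.46 kb of chromosome 1. Igfbp6 (ENSMUSG00000023046, chromosome 15, 102144362 to 102149511, plus strand) has no member beside it. Igfbp1 was lower in KO while its neighbour Igfbp3 overlapped between the groups, and in Control the levels per kb of this pair overlapped each other. In the other pair, Igfbp5 was read at 1594 to 14221 counts per library while Igfbp2 had at most 3.

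The mix of binding proteins was led by Igfbp7 in every library. The summed level of the 7 binding proteins was 583.0 ± 78.8 CPM per kb in KO and 1131 ± 274.7 CPM per kb in Control (SD, n = 4 each). Igfbp7 made up 88.8, 91.2, 88.3 and 92.8% of it in KO, and 97.7, 91.0, 93.6 and 94.2% in Control. Igfbp5 made up 7.28, 4.92, 5.89 and 5.04% in KO, and 0.841, 2.55, 3.01 and 2.73% in Control, so all 4 KO libraries lay above all 4 Control libraries. Igfbp4 made up 3.81 ± 1.53% in KO and 3.42 ± 2.01% in Control. The ratio of Igfbp7 to Igfbp5 per kb was 12.2 to 18.5 in KO and 31.1 to 35.7 in Control replicates 2 to 4, with 116.2 in Control replicate 1. A share moves with every other part of the sum, so these values show unequal levels within a library. Igfbp7, most of the sum, was lower in KO, and a lower sum raises the share of any gene whose own level is unchanged. The mean level of Igfbp5 was also higher in KO, at 34.3 ± 11.0 CPM per kb against 23.9 ± 7.78 in Control. That of Igfbp4 was lower, at 22.8 ± 10.9 CPM per kb in KO against 35.4 ± 16.0 in Control. How far each of these made the shares was not tested. Igfbp5 itself overlapped between the groups in CPM, so its share is not read as a separate difference.

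**Figure D3:**
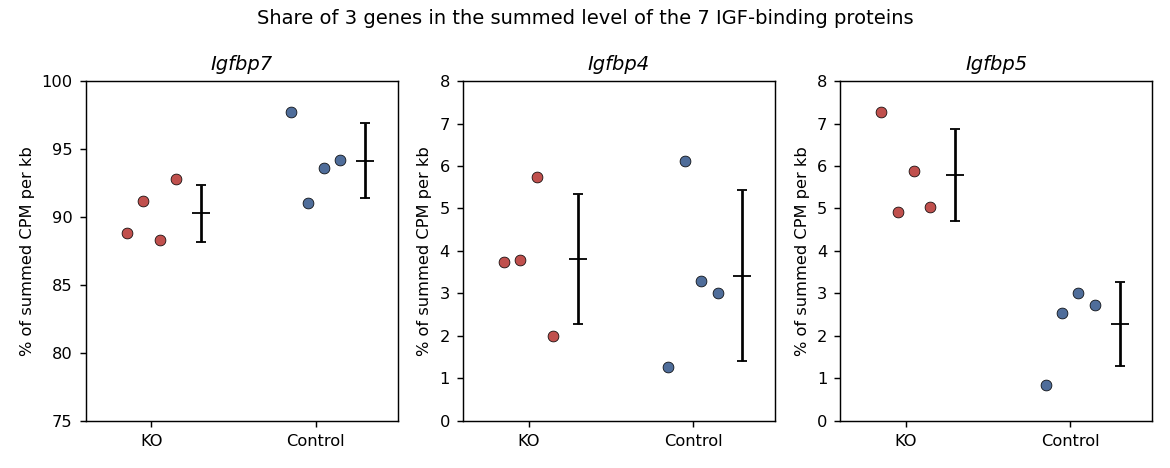
Share of Igfbp7, Igfbp4 and Igfbp5 in the summed CPM per kb of the 7 binding proteins in each library, KO in red and Control in blue, with mean and SD; the Igfbp7 axis begins at 75%. The Igfbp5 share is 4.92 to 7.28% in KO and 0.841 to 3.01% in Control.

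Markers of other cells were measured beside these genes. Proximal tubule markers (7 of 7 tested) had the largest sum among them after the thick ascending limb, 1050.0 to 2342 CPM in KO and 1019 to 3796 CPM in Control. This sum was lowest in KO replicate 4 and highest in KO replicate 3 within KO, and lowest in Control replicate 1 and highest in Control replicate 2 within Control, as was Igfbp4. Much of this order was shared by other lists. The thick ascending limb, connecting tubule, podocyte, endothelial and fibroblast sums had the same lowest and highest KO libraries. Control replicate 1 was also the lowest Control library for the connecting tubule, podocyte, endothelial, fibroblast and smooth muscle sums. Connecting tubule and principal cell markers (6 of 6 tested) summed to 111.5 to 272.2 CPM in KO and 258.4 to 412.7 CPM in Control. The sums were 283.9 to 612.6 CPM in KO and 344.3 to 476.3 CPM in Control for 5 intercalated cell markers, and 0.251 to 37.9 CPM in KO and 0.926 to 67.3 CPM in Control for 4 podocyte markers, all tested. Endothelial markers (7 of 7 tested) summed to 17.8 to 77.7 CPM in KO and 23.4 to 54.2 CPM in Control. Fibroblast and pericyte markers (3 of 7 tested, Lum at 0 throughout) summed to 0.251 to 4.56 CPM in KO and 2.19 to 7.27 CPM in Control. The 8 leukocyte markers summed to 18.7 to 76.6 CPM in KO and 9.95 to 12.0 CPM in Control, with 4 of them tested and Cd3e and Cd79a at no more than 3 counts in any library. Most of that sum was Csf1r, with 72.2, 12.4, 13.3 and 32.8 CPM in KO and 7.12, 6.01, 7.79 and 7.57 CPM in Control. Ptprc had 597 counts over KO and 199 over Control, and Cd68 had 208 and 53. Adgre1 had 30 counts over KO and 28 over Control, C1qa 47 and 31, and C1qb 66 and 54. Smooth muscle and renin cell markers (5 of 5 tested) summed to 3.51 to 21.1 CPM in KO and 18.7 to 30.0 CPM in Control. The thick ascending limb sum was lower in every KO library than in any Control library, as were Igf1, Igfbp1 and Igfbp7. The same held for the distal convoluted tubule sum given above. The members were selected on this contrast, so nothing is read from the match. Most of the thick ascending limb sum was Umod, at 2427 to 4545 CPM in KO and 6028 to 10962 CPM in Control. Of the 4 thick ascending limb genes Umod alone passed the edgeR threshold, and Slc12a1, Cldn10 and Ptger3 overlapped between the groups. Apart from the distal convoluted tubule list, no gene of the other lists in this paragraph passed. The part of these cells in the levels of the members was not tested.

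Around the members, 91 further genes of the IGF system were taken in 7 lists, and 80 of them were tested. Of these, 1 rose and 1 fell by edgeR, 2.5% of the 80, beside 2.21% of all genes. At an unadjusted p under 0.05, 7.79% of all genes were higher and 6.15% lower. The share called higher was 2.96% with DESeq2 and 2.0% with limma-voom, and the share called lower was 2.29% with DESeq2 and 1.63% with limma-voom. Both of the genes called by edgeR belong to the list of IGF and insulin signalling, of which 32 of the 34 tested did not pass. At an unadjusted p under 0.05, 4 of this list were higher and 2 lower. The calls were 2 higher and 2 lower with DESeq2, and 1 of each with limma-voom. The median log2 fold change was 0.06.

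The genes called, Pik3r1 (higher in KO) and Pik3r3 (lower in KO), encode regulatory subunits of PI3 kinase. The third such gene of the list, Pik3r2, named after its values were seen, did not pass and had a log2 fold change of 0.23 ± 0.17 (SE, edgeR adjusted p = 0.573). Pik3r1, which encodes p85α, had 136.6, 163.7, 151.3 and 181.0 CPM in KO, and 81.6, 108.3, 79.5 and 93.4 CPM in Control. Every KO library was above every Control library, and the log2 fold change was 0.80 ± 0.14 (SE, edgeR adjusted p = 0.0208). Pik3r3, which encodes p55γ, had 53.8, 50.8, 50.0 and 56.6 CPM in KO, and 67.1, 73.6, 86.7 and 78.0 CPM in Control. Every KO library was below every Control library, with a log2 fold change of -0.53 ± 0.11 (SE, edgeR adjusted p = 0.0415). The call of Pik3r1 was lost without KO replicate 2 or 4 and without Control replicate 3 or 4 (log2 fold changes of 0.78, 0.73, 0.74 and 0.81), and with a term for the series of animal numbers (0.79). That of Pik3r3 was lost without any 1 library other than Control replicate 1 (-0.57 to -0.47). The Pik3r3 call was also lost with a term for indexed file names or for the series of animal numbers (-0.53 in both). With library totals as the scaling it was lost too (-0.38, edgeR adjusted p = 0.163).

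**Figure D4:**
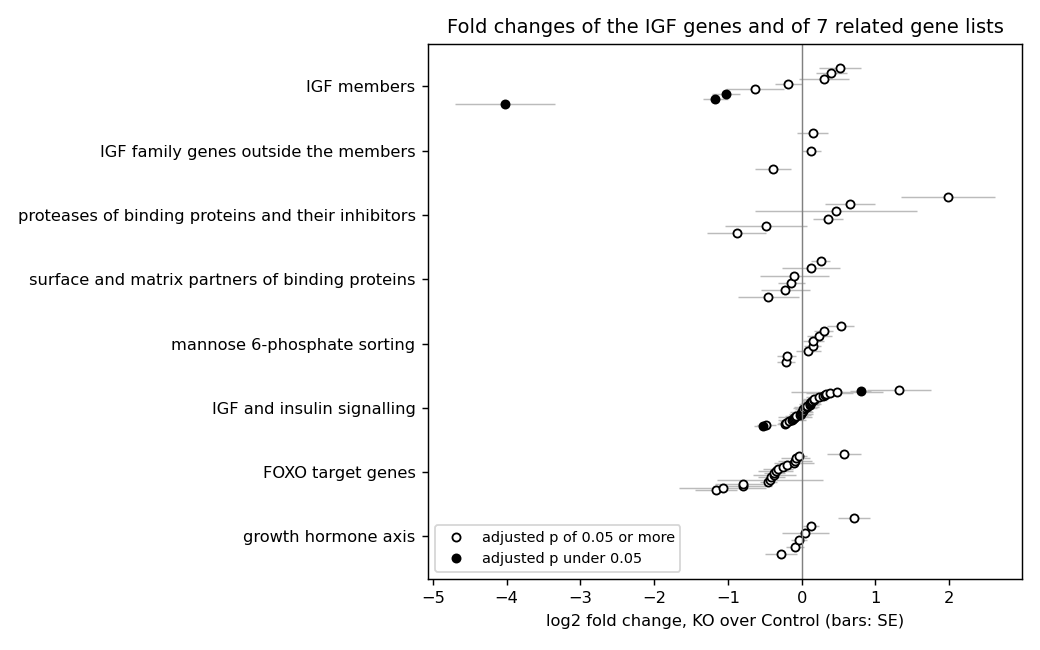
Log2 fold change, KO over Control, with SE for the tested members and for the tested genes of 7 related lists; filled points have an edgeR adjusted p under 0.05. Filled points are Igfbp1, Igf1 and Igfbp7 among the members and Pik3r3 and Pik3r1 in the signalling list.

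Of the 18 FOXO target genes, 0 passed by edgeR. At an unadjusted p under 0.05, 1 was higher and 3 lower, beside 7.79% and 6.15% of all genes. With DESeq2, 2 were called lower, G6pc and Sesn1, and with limma-voom 1, G6pc, beside 2.29% and 1.63% of all genes. The fold change was negative in 17 of the 18, where 52.9% of all genes were negative. The median was -0.36, beside -0.02 for all genes. With library totals as the scaling, 13 were negative and the median was -0.21, beside 0.13 for all genes. Sesn1, a stress-induced inhibitor of mTORC1 signalling, had the smallest p, with 28.9, 28.1, 29.7 and 28.4 CPM in KO, and 44.3, 38.5, 34.0 and 40.0 CPM in Control. Its log2 fold change was -0.45 ± 0.11 (SE, edgeR adjusted p = 0.0744). Markers of the proximal tubule also had negative fold changes, -0.68 to -0.45 in all 7, with none past the threshold. The list holds G6pc and Pck1, gluconeogenic enzymes that this tubule expresses, with log2 fold changes of -1.16 ± 0.28 and -1.07 ± 0.59 (SE), named after their values were seen. The part of proximal tubule RNA in the list was not tested. Genes of a list are not independent of each other, and the list as a whole was not tested.

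The lists nearest to the binding proteins held no call by edgeR. Of 6 tested proteases and their inhibitors, 0 passed by edgeR or DESeq2, 1 was higher at an unadjusted p under 0.05, and limma-voom called 1 lower, Htra1. The median of this list was 0.41 by edgeR, -0.27 by limma-voom and -0.37 without KO replicate 3. Adam12, a protease of IGFBP3 and IGFBP5, had the smallest p, with 0.757 ± 0.193 CPM in KO and 0.202 ± 0.194 CPM in Control, a log2 fold change of 1.99 ± 0.64 (SE, edgeR adjusted p = 0.187). These values rest on 31, 23, 14 and 19 reads in KO and 1, 2, 5 and 9 in Control. Adam12 passed the filter on low counts through its KO libraries, as Control replicates 1 to 3 lay below the cut-off, so nothing is read from its fold change. Of 6 tested surface and matrix partners, 0 passed by edgeR, DESeq2 or limma-voom and 0 had an unadjusted p under 0.05. Their median was -0.12, beside -0.02 for all genes. It was 0.03 with library totals, beside 0.13 for all genes, and 0.08 with a term for the series of animal numbers, beside -0.01. Itgb1, a subunit of the integrin that IGFBP1 binds, stood at 303.6 ± 45.2 CPM in KO and 253.0 ± 17.5 CPM in Control (edgeR adjusted p = 0.401).

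Sorting and hormone genes held none by edgeR either. Of 8 tested genes of mannose 6-phosphate sorting, 0 passed by edgeR, DESeq2 or limma-voom, 2 were higher at an unadjusted p under 0.05, and the median was 0.15. Sort1, the sorting receptor sortilin, stood at 222.2 ± 57.1 CPM in KO and 154.1 ± 18.3 CPM in Control (edgeR adjusted p = 0.222). Of 6 tested genes of the growth hormone axis, 0 passed by edgeR or DESeq2, and 1, Socs2, was higher at an unadjusted p under 0.05 and by limma-voom. Their median was 0.01, ranging from -0.13 to 0.15 over the alternatives. The 0.15 was with library totals, where that of all genes was 0.13. Socs2, a feedback inhibitor of growth hormone signalling, stood at 57.9 ± 10.4 CPM in KO and 35.5 ± 12.3 CPM in Control (edgeR adjusted p = 0.178). Of 6 other family genes, 3 were tested and 0 passed by edgeR, DESeq2 or limma-voom, with 0 at an unadjusted p under 0.05. Igfals, the acid-labile partner of IGFBP3 in blood, stood at 2.99 ± 0.738 CPM in KO and 3.92 ± 0.374 CPM in Control (edgeR adjusted p = 0.494).

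**Figure D5:**
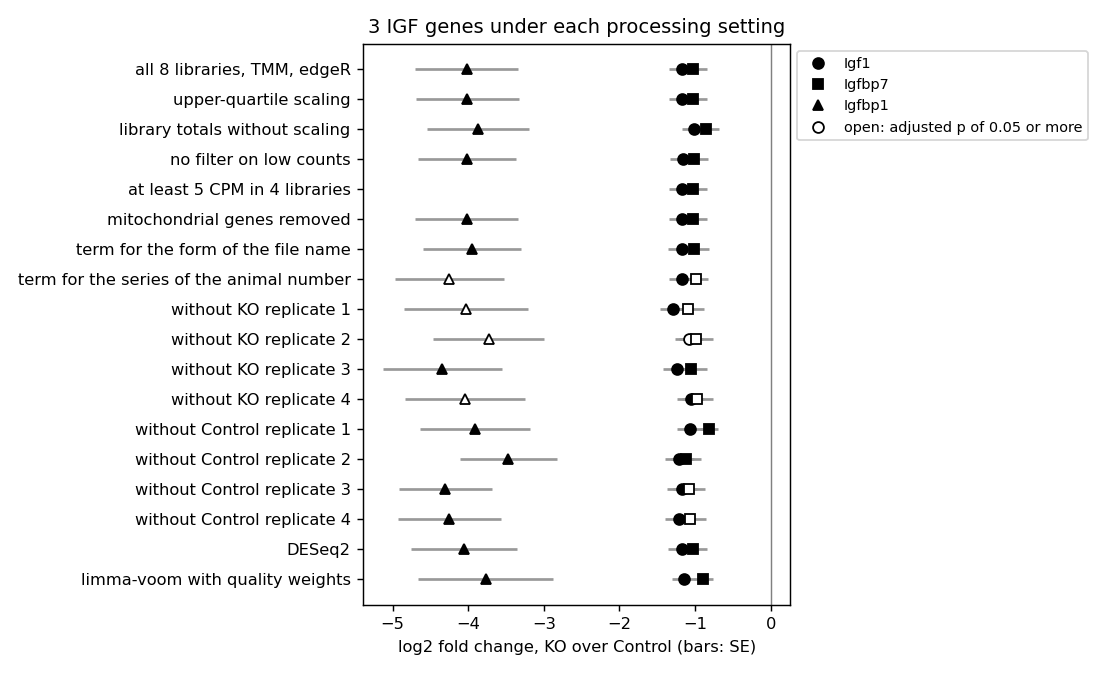
Log2 fold change, KO over Control, with SE for Igf1, Igfbp7 and Igfbp1 under each processing setting; open symbols have an adjusted p of 0.05 or more, and Igfbp1 could not be tested with a filter of 5 CPM in 4 libraries. Igf1 lies between -1.29 and -1.01, Igfbp7 between -1.12 and -0.82 and Igfbp1 between -4.34 and -3.47 over the alternatives.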

How the data were processed

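The values deposited by the authors are raw counts of reads for each Ensembl gene. The tools listed in the submitters' processing notes are STAR 2.7.4a, fastp 0.20.0 and bcl2fastq 2.20, with GRCm38.p6. How reads were assigned to genes, by which program and with which strand setting, is not stated. Names, exon lengths and coordinates came from GENCODE M21, which matched 42347 of 42416 identifiers, and promoters from RefSeq on GRCm38.p6, which matched all 10 members.

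Groups follow the deposited genotype label, and a replicate number is only a name, given in accession order. Each library's label carries another animal number. Genes were kept by edgeR's filterByExpr (minimum count of 10), scaled by TMM and compared by the quasi-likelihood test of edgeR 4.0.16 (two-sided, R 4.3.3), over all 8 libraries with genotype as the single factor. Adjusted p-values are Benjamini-Hochberg over all 14268 genes tested, with a threshold of 0.05. Each edgeR standard error is the size of the log2 fold change over the root of the F statistic. The standard errors of DESeq2 and limma-voom come from their own fits. The test was tested on simulated data. CPM used TMM-scaled library sizes.

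The members and the gene lists were chosen with earlier results of these data known. Genes named from the lists are those past the threshold or, in a list with none, the one with the smallest p. The likeness rule took the member with the smallest p and the most abundant member. Igf1's upstream bases are not printed because they lie in exons of other Igf1 transcripts. Alternatives were DESeq2 1.42.0, limma 3.58.1 voom with quality weights, other scalings and filters, removal of mitochondrial genes, a term for file names with or without an index, a term for the series of animal numbers, and leaving out each library.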

Additional observations from a re-analysis of the deposited data

Results flagged for a closer look

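Socs2 in Control replicate 1 stood at 53.8 CPM, apart from the other Control libraries, which lay between 27.6 and 31.0 CPM. Its gap to the nearest library was 0.872 of the group's range, above Dixon's 95% limit for 4 samples. It was the only one of 32 groups of 4 examined, over the tested members and the named genes of the lists, and chance alone flags about 1 in 20.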

How the results depend on the processing

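Calls over all genes, 316 as reported, numbered 36 to 388 with 1 library left out (175, 36 and 110 without KO replicates 1, 2 and 4, and 198, 166, 111 and 53 without Control replicates 1 to 4), 140 with a filter of 5 CPM in 4 libraries, 199 with a term for indexed file names, 29 with a term for the series of the animal number, 749 by DESeq2 and 519 by limma-voom. Calls among the members, 3 as reported, numbered 0 to 3 with 1 library left out (0 without KO replicate 2, 1 without KO replicate 1 or 4) and 1 with the animal series term, which kept Igf1. Calls in the wider lists, 2 as reported, numbered 0 to 4 with 1 library left out (0 without KO replicate 2 or 4 or Control replicate 3 or 4, 1 without Control replicate 2, 4 without Control replicate 1), 1 with library totals or the file name term, 0 with the animal series term, 6 by DESeq2 and 5 by limma-voom. The cause of these changes was not tested. Each member kept the sign of its fold change under every alternative that tested it. In the Control order, Igf1r and Igf1 exchanged places 5 and 6 without Control replicate 2, and no other member moved. The Igfbp7 share was 89.4 to 90.9% in KO and 92.9 to 95.1% in Control with 1 library left out. No paired analysis was possible because the labels carry no replicate numbers that the groups share. Depth limits Igfbp1, Igfbp2 and Igfbp6, read at 0 to 7 counts per KO library.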
